A study of Homo sapiens with 18 samples.

Results

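The comparison set 3 libraries of irradiated IMR90 cells given RG7388 (IR_RG7388) against 3 libraries of proliferating IMR90 cells given the solvent DMSO (Prolif_DMSO). These are 6 of the 18 libraries of the series, and they were chosen by their labels alone. IMR90 is a strain of human lung fibroblasts that is widely used to study senescence, and RG7388 is a small molecule that blocks the binding of MDM2 to p53. Every group was wild type, was grown in 3.5% oxygen and was profiled by sequencing of poly(A) RNA. IR_RG7388 cells were made senescent by irradiation, received RG7388 from day 4 and were collected on day 11 after irradiation, after 7 days with the compound. The 3 IR_DMSO libraries came from irradiated cells that received the solvent, and they define the senescent profile without the compound. The 3 Prolif_RG7388 libraries came from cells that were not irradiated and received RG7388, and Prolif_DMSO cells had neither irradiation nor compound. For proliferating cells the labels give neither the day of collection nor the length of treatment. The labels do not say whether the libraries of a group came from separate cultures or irradiations, so the p-values reflect the spread among libraries alone, and that spread may be technical.

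Senescence is a lasting exit from the cell cycle after damage such as DNA breaks. The transcription factor p53 turns on CDKN1A, whose protein blocks the cyclin-dependent kinases, and it also turns on MDM2, the ubiquitin ligase that marks p53 for degradation. Senescent cells further secrete cytokines, chemokines, proteases and growth factors, the senescence-associated secretory phenotype (SASP), which is driven largely by NF-kB, and they turn on interferon-stimulated genes when DNA in the cytoplasm is sensed by cGAS and STING.

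The question was which parts of the senescent profile were still present in irradiated cells under RG7388 and which stood at the level of proliferating cells. The difference of IR_RG7388 from Prolif_DMSO holds irradiation, compound and any difference in time in culture together. These cannot be told apart in it, so the levels of IR_DMSO and Prolif_RG7388 are given beside it. Levels are CPM, the counts of a gene relative to the library size, which was scaled by edgeR's trimmed mean of M-values. Calls were made by edgeR's quasi-likelihood test, with p-values adjusted after Benjamini and Hochberg and a threshold of 0.05. In bulk RNA, fewer cells that express a gene and less of its RNA per cell cannot be told apart.

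Library totals were 31780450 to 63978866 counts in IR_RG7388 and 25122199 to 66647700 counts in Prolif_DMSO, and 18151 genes passed the filter on low counts. IR_DMSO replicate 1 stood apart from the other irradiated libraries, with 0.67% of its counts from mitochondrially encoded genes against 2.38 to 3.23% in the other 8. All 12 listed fibroblast markers passed the filter, with a summed level of 23445 to 25417 CPM in IR_RG7388 against 40882 to 46120 CPM in Prolif_DMSO. PTPRC, CDH5 and CDH1, which define leukocytes, endothelium and epithelium, were below the count filter, but other markers of each kind passed it. Of 9 listed endothelial markers 6 were tested, 1 called higher and 1 lower in IR_RG7388. Their summed level was 122 to 128 CPM against 86.6 to 93.8 CPM in Prolif_DMSO. Of 11 listed epithelial markers 6 were tested, 1 called higher and 1 lower. These summed to 368 to 428 CPM in IR_RG7388 against 277 to 295 CPM in Prolif_DMSO. Of 11 listed leukocyte markers 4 were tested and 3 of these were higher in IR_RG7388, with a summed level of 29.7 to 33.4 CPM against 16.2 to 17.2 CPM in Prolif_DMSO, and the part of such cells in the inflammatory results was not tested.

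Most listed targets of p53 were above the proliferating level in IR_RG7388 cells. CDKN1A (chr6:36676460-36687337, hg38) had 2077, 2089 and 2165 CPM in IR_RG7388 against 222, 246 and 225 CPM in Prolif_DMSO, 9.13-fold higher (log2 3.19 ± 0.12 SE, edgeR adjusted p = 2.4e-16). The groups did not overlap, and the 3 IR_DMSO libraries, at 1709, 1868 and 1878 CPM, lay below IR_RG7388 by an amount that missed the threshold (edgeR adjusted p = 0.16). MDM2, the negative regulator of p53 and the target of the compound, had 172, 164 and 154 CPM in IR_RG7388 against 34.7, 33.7 and 44.8 CPM in Prolif_DMSO (log2 2.12 ± 0.18, adjusted p = 9.9e-09). IR_DMSO had 169, 169 and 172 CPM of MDM2, and Prolif_RG7388 averaged 748 CPM of CDKN1A and 64.0 CPM of MDM2, between the irradiated libraries and Prolif_DMSO.

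**Figure D1:**
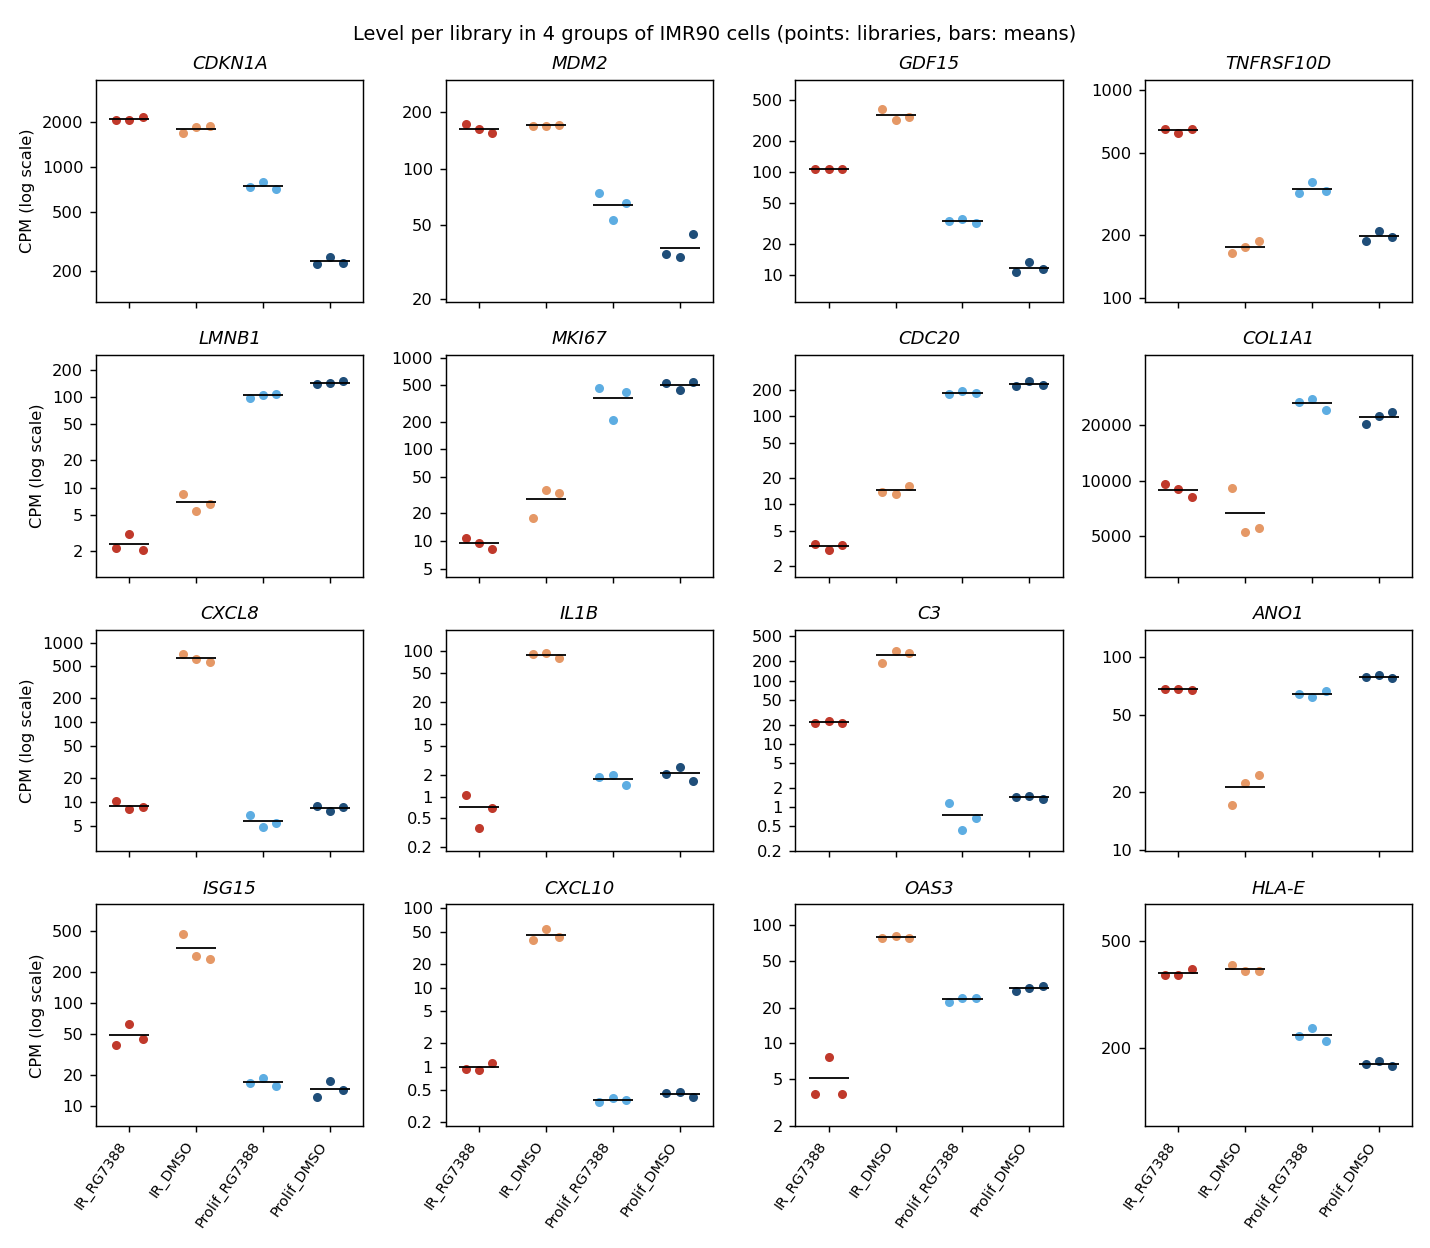
Level of 16 genes in each library, in CPM on a log axis, for IR_RG7388, IR_DMSO, Prolif_RG7388 and Prolif_DMSO. Points are libraries and bars are means of 3. CDKN1A and MDM2 are high in both irradiated groups, CXCL8 in IR_RG7388 lies beside Prolif_DMSO, and LMNB1 and CDC20 lie below every other group.

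Of 59 genes listed as p53 targets 57 were tested, of which 41 were higher in IR_RG7388 than in Prolif_DMSO and 7 were lower, where 24.6% of all genes tested were called higher and 24.6% lower. Their median log2 difference was 1.04, against 0.01 over all genes tested, and the median in IR_DMSO was 1.11. PTCHD4, a patched-domain membrane protein gene, had 20.9, 19.2 and 18.3 CPM in IR_RG7388 against 0.324, 0.172 and 0.273 CPM in Prolif_DMSO. TRIM22, an antiviral ubiquitin ligase that both p53 and interferon can induce, rose 9.27-fold, and TNFRSF10C, a decoy receptor for the death ligand TRAIL, rose 38.0-fold to 17.1, 17.5 and 14.7 CPM in IR_RG7388. All 3 genes were held, and IR_DMSO averaged 13.5 CPM of PTCHD4, 87.0 CPM of TRIM22 and 12.6 CPM of TNFRSF10C. ACTA2, smooth muscle actin, is also on the list and was held low. Of the 57 genes, 7 were higher and 16 lower in IR_RG7388 than in IR_DMSO. In that comparison 10.9% of all genes tested were higher and 11.9% lower.

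GDF15, a stress-induced secreted member of the TGF-beta superfamily, kept part of its rise. It had 106, 105 and 107 CPM in IR_RG7388, 406, 314 and 338 CPM in IR_DMSO, and 10.6, 13.3 and 11.4 CPM in Prolif_DMSO. IR_RG7388 was thus 9.09-fold above Prolif_DMSO (log2 3.18 ± 0.14, edgeR adjusted p = 9.0e-15) and 3.32-fold below IR_DMSO (adjusted p = 9.0e-10), with no overlap between any of the 3 groups.

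The senescent profile was taken as the genes called at 2-fold or more in IR_DMSO against Prolif_DMSO, which gave 2457 higher (13.5% of genes tested) and 1674 lower (9.22%). Without a fold minimum, 26.3% were called higher and 25.3% lower in that comparison. A profile gene was counted as held where IR_RG7388 was called in the same direction at 2-fold or more, as returned where the 95% interval of its difference from Prolif_DMSO lay within 2-fold either way, as opposite where it was called at 2-fold or more in the other direction, and as between otherwise. Both comparisons use the same Prolif_DMSO libraries, so their values stand side by side and no correlation is drawn from them.

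Most of the profile was held. Of the 4131 profile genes, 2607 (63.1%) were held, 360 (8.71%) returned, 21 were opposite and 1143 were between. Over all genes, IR_RG7388 was called at 2-fold or more above Prolif_DMSO in 1816 (10.0% of genes tested) and below it in 2015 (11.1%), and the 3 libraries of each group did not overlap for 64.8%. Of the 1674 lower genes 1252 were held (74.8%), and of the 2457 higher genes 1355 were held (55.1%), a difference that was not tested. Among the higher genes 221 returned (8.99%) and all 21 opposite genes were of this kind, and among the lower genes 139 returned (8.30%).

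Held did not mean equal to IR_DMSO. Against IR_DMSO, 10.9% of all genes tested were higher in IR_RG7388 and 11.9% lower. Of the 1355 genes held high, 171 were lower than in IR_DMSO, 117 were higher and 1067 were not called. Of the 1252 genes held low, 350 lay lower still in IR_RG7388, 69 were higher and 833 were not called. The median log2 difference from Prolif_DMSO of the genes held low was -1.90 in IR_RG7388 and -1.71 in IR_DMSO, that of the returned higher genes was 0.26 in IR_RG7388 and 1.30 in IR_DMSO, and that of the returned lower genes was -0.49 in IR_RG7388 and -1.14 in IR_DMSO. Returned likewise meant within 2-fold of Prolif_DMSO and not equal to it. The libraries of both groups did not overlap for 118 of the 221 returned higher genes and 114 of the 139 returned lower genes. Among all genes tested 64.8% did not overlap. Of the 860 genes between on the higher side, 635 were not called against Prolif_DMSO while their interval reached past 2-fold, so these data place them neither at the proliferating level nor above it.

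**Figure D2:**
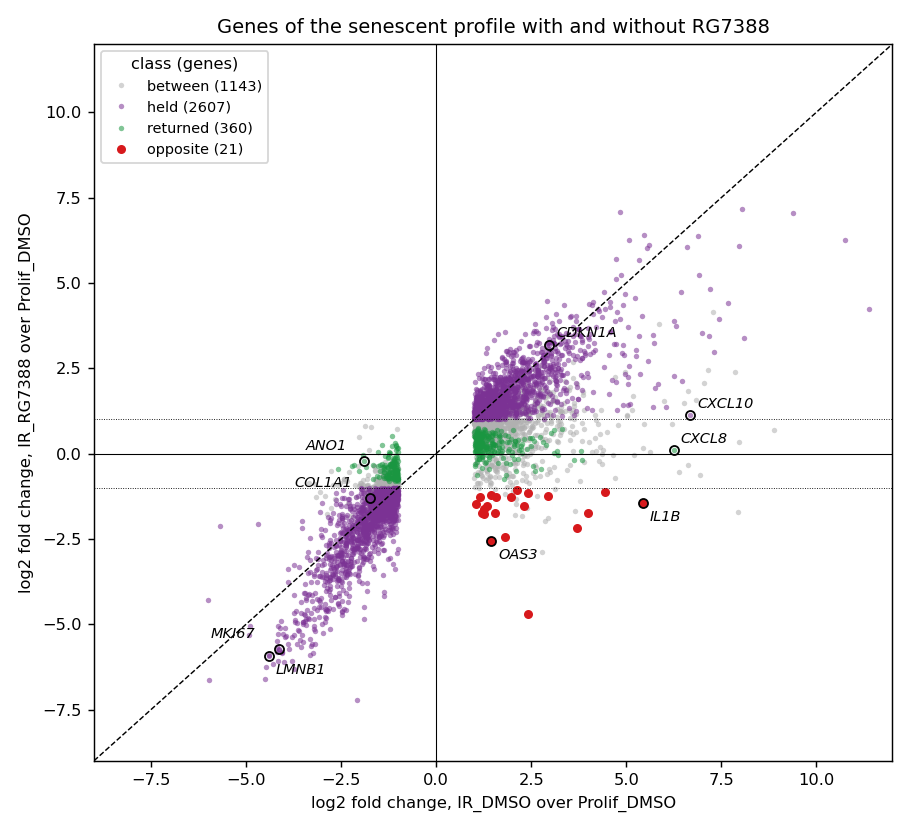
Each point is 1 of the 4131 genes of the senescent profile, with its log2 fold change in IR_DMSO over Prolif_DMSO on the x axis and in IR_RG7388 over Prolif_DMSO on the y axis, colored by class. The dashed line marks equal values and the dotted lines 2-fold; genes held low such as LMNB1 and MKI67 lie below the dashed line, CXCL8 lies near 0 on the y axis, and IL1B and OAS3 are among the 21 opposite genes.

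Repression of the cell cycle was held and was deeper than in IR_DMSO. All 52 listed mitosis genes were lower in IR_RG7388 than in Prolif_DMSO, all 52 were held, and 51 of them were also lower than in IR_DMSO. Their median log2 difference from Prolif_DMSO was -5.12 in IR_RG7388 and -3.36 in IR_DMSO, and their summed level was 248 to 266 CPM in IR_RG7388, 693 to 729 CPM in IR_DMSO and 6991 to 7266 CPM in Prolif_DMSO. MKI67, the proliferation antigen Ki-67, had 10.9, 9.56 and 8.12 CPM in IR_RG7388 against 526, 447 and 545 CPM in Prolif_DMSO (log2 -5.73 ± 0.43, edgeR adjusted p = 3.6e-08). The 3 IR_DMSO libraries, at 17.96, 35.7 and 33.0 CPM, lay between the groups without touching either.

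CDC20, the activator of the anaphase-promoting complex, fell 69.3-fold to 3.52, 3.03 and 3.47 CPM in IR_RG7388, against 220.5, 251 and 228 CPM in Prolif_DMSO, and stood 4.32-fold below IR_DMSO (edgeR adjusted p = 7.8e-10). KIF20A, a kinesin of the central spindle, fell 78.7-fold, CENPA, the histone that marks centromeres, fell 97.0-fold, and PLK1, the kinase that drives mitotic entry, fell 59.4-fold. CCNA2, the cyclin of S phase and G2, had 5.48, 5.04 and 5.50 CPM in IR_RG7388 against 164, 152 and 163 CPM in Prolif_DMSO. None of these genes overlapped between IR_RG7388 and Prolif_DMSO, and each was lower than in IR_DMSO.

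Cell-cycle genes repressed through p53 can carry, as background, CCAAT boxes and the cell-cycle homology region TTTGAA in their promoters, which is why the CDC20 promoter is shown. The RefSeq promoter table (GRCh38.p14) covers 250 bases before to 50 bases after a gene's start, chr1:43358731-43359030 on the plus strand for CDC20. Capitals mark CCAAT boxes and TTTGAA on either strand.
CDC20: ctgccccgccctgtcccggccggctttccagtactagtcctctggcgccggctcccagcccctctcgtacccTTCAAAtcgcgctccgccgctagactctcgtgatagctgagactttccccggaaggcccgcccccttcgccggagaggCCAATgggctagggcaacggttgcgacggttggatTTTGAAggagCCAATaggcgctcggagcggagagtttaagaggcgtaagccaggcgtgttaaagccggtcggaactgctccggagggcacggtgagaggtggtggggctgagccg
In this window TTTGAA or its complement TTCAAA occurs at bases -178 and -65 and CCAAT at bases -100 and -55 from the start. The same window of CCNB1, another held gene that was scanned, has CCAAT at bases -87 and -55 and no TTTGAA on either strand. Of the 1252 genes held low, 840 matched the table, with 1195 promoters, of which 18.7% hold TTTGAA on either strand, 41.1% hold CCAAT and 6.95% hold the E2F letters TTTCCCGC or TTTGGCGC. Over the 17009 promoters of the genes tested that matched, the shares were 10.7%, 34.3% and 3.25%, and over all 35116 promoters they were 15.2%, 34.6% and 2.27%. A match is a description of the letters and not evidence of binding.

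DNA replication and repair genes were also mostly lower than in Prolif_DMSO, but a smaller share of them than of the mitosis genes was lower than in IR_DMSO. Of 46 replication and E2F target genes, 45 were lower in IR_RG7388 than in Prolif_DMSO and none was higher, with a median of -2.60 against -2.17 in IR_DMSO. Against IR_DMSO, 32 of the 46 were lower and 14 were not called. TK1, thymidine kinase, fell 23.3-fold, RRM2, a subunit of ribonucleotide reductase, fell 20.1-fold, and CDC45, part of the replicative helicase, fell 17.6-fold. Of 32 genes of homologous recombination and the Fanconi pathway, 15 were lower than in IR_DMSO and 17 were not called against it. Against Prolif_DMSO 26 were lower and 1 was higher. FANCD2, which is loaded at crosslinks, had 1.67, 2.13 and 2.23 CPM in IR_RG7388 against 39.4, 39.8 and 41.6 CPM in Prolif_DMSO, and the higher gene was ATM, the kinase that signals DNA breaks (log2 0.83 ± 0.26, edgeR adjusted p = 0.014). Without Prolif_DMSO replicate 2, ATM missed the threshold (adjusted p = 0.055).

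More genes of end joining and break signaling were lower than higher. Of 25 listed, 14 were lower and 2 were higher, XRCC4 and LIG4, which form the complex that seals DNA ends. Among all genes tested 24.6% were called lower and 24.6% higher. XRCC4 had 20.0, 21.7 and 21.6 CPM in IR_RG7388, 11.8, 10.3 and 10.8 CPM in IR_DMSO and 13.3, 10.9 and 11.9 CPM in Prolif_DMSO. It was 1.75-fold above Prolif_DMSO (log2 0.80 ± 0.15, edgeR adjusted p = 0.00011) and 1.92-fold above IR_DMSO (adjusted p = 6.5e-05), and its IR_RG7388 libraries overlapped with neither group. LIG4 averaged 21.7 CPM in IR_RG7388, 22.3 CPM in IR_DMSO and 14.4 CPM in Prolif_DMSO.

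The nuclear marks of senescence were held as well. LMNB1 (chr5:126776623-126837020), lamin B1 of the nuclear lamina, whose loss is a marker of senescence, had 2.11, 3.03 and 2.05 CPM in IR_RG7388 against 141, 144 and 149 CPM in Prolif_DMSO. This was 61.2-fold lower (log2 -5.94 ± 0.17, edgeR adjusted p = 4.4e-18), and IR_DMSO, at 8.50, 5.47 and 6.52 CPM, lay above every IR_RG7388 library. HMGB2, a chromatin protein lost in senescent cells, had 7.29, 6.50 and 7.34 CPM in IR_RG7388 against 227, 225 and 232 CPM in Prolif_DMSO, and EZH2, the H3K27 methyltransferase, fell 13.1-fold. Of 31 genes of the nuclear envelope and chromatin, 27 were lower and 1 was higher. That gene was HMGA2, an architectural chromatin protein, with 808, 785 and 739 CPM in IR_RG7388 against 407, 394 and 403 CPM in Prolif_DMSO. Its relative HMGA1 returned, with 1261, 1311 and 1367 CPM in IR_RG7388, 486, 769 and 832 CPM in IR_DMSO and 1549, 1608 and 1358 CPM in Prolif_DMSO, where 1 IR_RG7388 library overlapped with Prolif_DMSO.

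Besides CDKN1A, the genes of the cyclin-dependent kinase inhibitors were not raised: of 11 listed, 1 was higher and 8 were lower. CDKN2A, the source of p16 and ARF, had 7.89, 6.68 and 8.32 CPM in IR_RG7388, 16.1, 12.7 and 13.4 CPM in IR_DMSO and 14.8, 17.6 and 15.6 CPM in Prolif_DMSO. IR_RG7388 lay below both, 2.09-fold below Prolif_DMSO (log2 -1.06 ± 0.15, edgeR adjusted p = 2.1e-06), and Prolif_RG7388 averaged 9.58 CPM. CDKN2B, which encodes p15, averaged 9.57 CPM in IR_RG7388, 17.4 CPM in IR_DMSO and 13.5 CPM in Prolif_DMSO, and was lower than in Prolif_DMSO (log2 -0.50 ± 0.15, adjusted p = 0.0069). CDKN2C, which encodes p18, fell 31.2-fold, and CDKN1B, which encodes p27, fell 3.29-fold.

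NF-kB cytokines and chemokines, most of them raised in IR_DMSO, were spread on both sides of the proliferating level under RG7388. This list also holds genes that are not cytokines, such as PTGS2, C3 and SOD2. Of 35 tested, 32 were higher in IR_DMSO than in Prolif_DMSO with a median of 3.72. In IR_RG7388, by contrast, 11 were higher, 10 lower and 14 not called, with a median of 0.01. The shares over all genes tested were 24.6% higher and 24.6% lower in IR_RG7388. All but 1 of the 35 were lower in IR_RG7388 than in IR_DMSO. Of the 29 that belonged to the profile, 7 were held, 7 returned, 4 were opposite and 11 were between. Among all higher profile genes 55.1% were held, 8.99% returned and 35.0% were between. The summed level of the list was 661 to 689 CPM in IR_RG7388, 3674 to 4045 CPM in IR_DMSO and 530 to 542 CPM in Prolif_DMSO.

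CXCL8 (chr4:73740519-73743716), the neutrophil chemokine interleukin-8, had 10.2, 8.01 and 8.61 CPM in IR_RG7388, 709, 622 and 574 CPM in IR_DMSO and 8.69, 7.72 and 8.61 CPM in Prolif_DMSO. IR_RG7388 overlapped with Prolif_DMSO, with a log2 difference of 0.10 ± 0.14 (95% interval -0.20 to 0.39, edgeR adjusted p = 0.59), and lay 70.8-fold below IR_DMSO (adjusted p = 2.0e-17). PTGS2, the inducible cyclooxygenase, likewise returned, with 5.82, 4.33 and 5.65 CPM in IR_RG7388 against 5.48, 3.92 and 5.49 CPM in Prolif_DMSO, while IR_DMSO had 63.2 to 81.9 CPM. VCAM1, an adhesion molecule for leukocytes, and TNFAIP2, induced by tumor necrosis factor, also met the returned rule but still differed from Prolif_DMSO, at log2 0.71 ± 0.14 (edgeR adjusted p = 0.00022) and -0.75 ± 0.11 (adjusted p = 8.1e-06).

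Interleukin-1 and interleukin-6 passed below the proliferating level. IL1B had 1.06, 0.371 and 0.700 CPM in IR_RG7388, 91.4, 94.6 and 80.9 CPM in IR_DMSO and 2.07, 2.59 and 1.64 CPM in Prolif_DMSO. It was 2.70-fold below Prolif_DMSO (log2 -1.44 ± 0.25, edgeR adjusted p = 4.5e-05) and 116-fold below IR_DMSO, with no overlap. IL1A, its partner, had 0.352, 0.186 and 0.233 CPM in IR_RG7388 against 0.664, 0.905 and 1.28 CPM in Prolif_DMSO (log2 -1.75 ± 0.47, adjusted p = 0.0045). IL6 had 5.53, 5.11 and 6.30 CPM in IR_RG7388, 112, 159 and 135 CPM in IR_DMSO and 8.52, 10.2 and 11.0 CPM in Prolif_DMSO, a fall of less than 2-fold against Prolif_DMSO (log2 -0.81 ± 0.15, adjusted p = 0.0001). BCL2A1, an anti-apoptotic NF-kB target, was opposite too (log2 -2.18 ± 0.71), but it rested on 6 counts in IR_RG7388 and missed the threshold without IR_RG7388 replicate 1 (adjusted p = 0.069).

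The 7 held genes of the NF-kB cytokine and chemokine list stayed 2-fold or more above Prolif_DMSO. C3, the central complement protein, had 21.1, 23.3 and 21.6 CPM in IR_RG7388, 189, 289 and 271 CPM in IR_DMSO and 1.42, 1.51 and 1.37 CPM in Prolif_DMSO. It was 15.4-fold above Prolif_DMSO (log2 3.95 ± 0.19, edgeR adjusted p = 8.0e-14) and 11.3-fold below IR_DMSO. CCL2, the monocyte chemokine, had 45.5, 41.3 and 44.5 CPM in IR_RG7388 against 18.5, 23.7 and 19.1 CPM in Prolif_DMSO, and SOD2, mitochondrial superoxide dismutase, had 169, 156 and 149 CPM in IR_RG7388 against 59.3, 61.4 and 68.4 CPM in Prolif_DMSO. Neither gene overlapped between the groups. The log2 differences from Prolif_DMSO in IR_RG7388 and IR_DMSO were 3.95 and 7.45 for C3. They were 1.11 and 3.31 for CCL2, and 1.33 and 3.97 for SOD2. CCL20, a chemokine for lymphocytes, had no count in Prolif_DMSO and 8 counts in the 3 IR_RG7388 libraries, at least 2.93-fold higher against a floor of 3 counts over the Prolif_DMSO group, and it missed the threshold without IR_RG7388 replicate 3 (adjusted p = 0.052) and without Prolif_DMSO replicate 1 (adjusted p = 0.071).

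Among inhibitors of NF-kB that are themselves its targets, NFKBIA and TNFAIP3 fell below the proliferating level and TNIP1 stayed above it. NFKBIA, the inhibitor that holds NF-kB in the cytoplasm, had 18.6, 17.2 and 18.9 CPM in IR_RG7388, 131, 107 and 103 CPM in IR_DMSO and 40.5, 44.7 and 40.8 CPM in Prolif_DMSO. It was 2.30-fold below Prolif_DMSO (log2 -1.20 ± 0.12, edgeR adjusted p = 1.4e-08), and TNFAIP3, the deubiquitinase A20, was 2.22-fold below it (log2 -1.15 ± 0.12, adjusted p = 6.3e-08), both without overlap. TNIP1, a partner of A20, had 304, 295 and 329.8 CPM in IR_RG7388, 418, 418 and 424 CPM in IR_DMSO and 185, 179 and 174 CPM in Prolif_DMSO, 1.73-fold above Prolif_DMSO (log2 0.79 ± 0.11, adjusted p = 2.1e-06). TNFAIP6, a secreted hyaluronan-binding protein, was not part of the profile and had 0.322, 0.0928 and 0.285 CPM in IR_RG7388, 13.4, 9.52 and 9.08 CPM in IR_DMSO and 9.53, 8.97 and 8.96 CPM in Prolif_DMSO (log2 -5.17 ± 0.28). Of 16 NF-kB subunits and feedback genes, 7 were lower than in Prolif_DMSO and 3 higher, and 13 were lower than in IR_DMSO. Among all genes tested 24.6% were lower and 24.6% higher than in Prolif_DMSO, and 11.9% were lower than in IR_DMSO. NFKBIZ, a nuclear co-regulator, and IRAK2, a kinase of the interleukin-1 receptor, returned, with log2 differences from Prolif_DMSO of 0.33 ± 0.12 and 0.36 ± 0.13. Their calls above Prolif_DMSO (edgeR adjusted p = 0.025 and 0.030) were lost in most of the fits that left out a library of either group, with adjusted p up to 0.13 and 0.17.

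**Figure D3:**
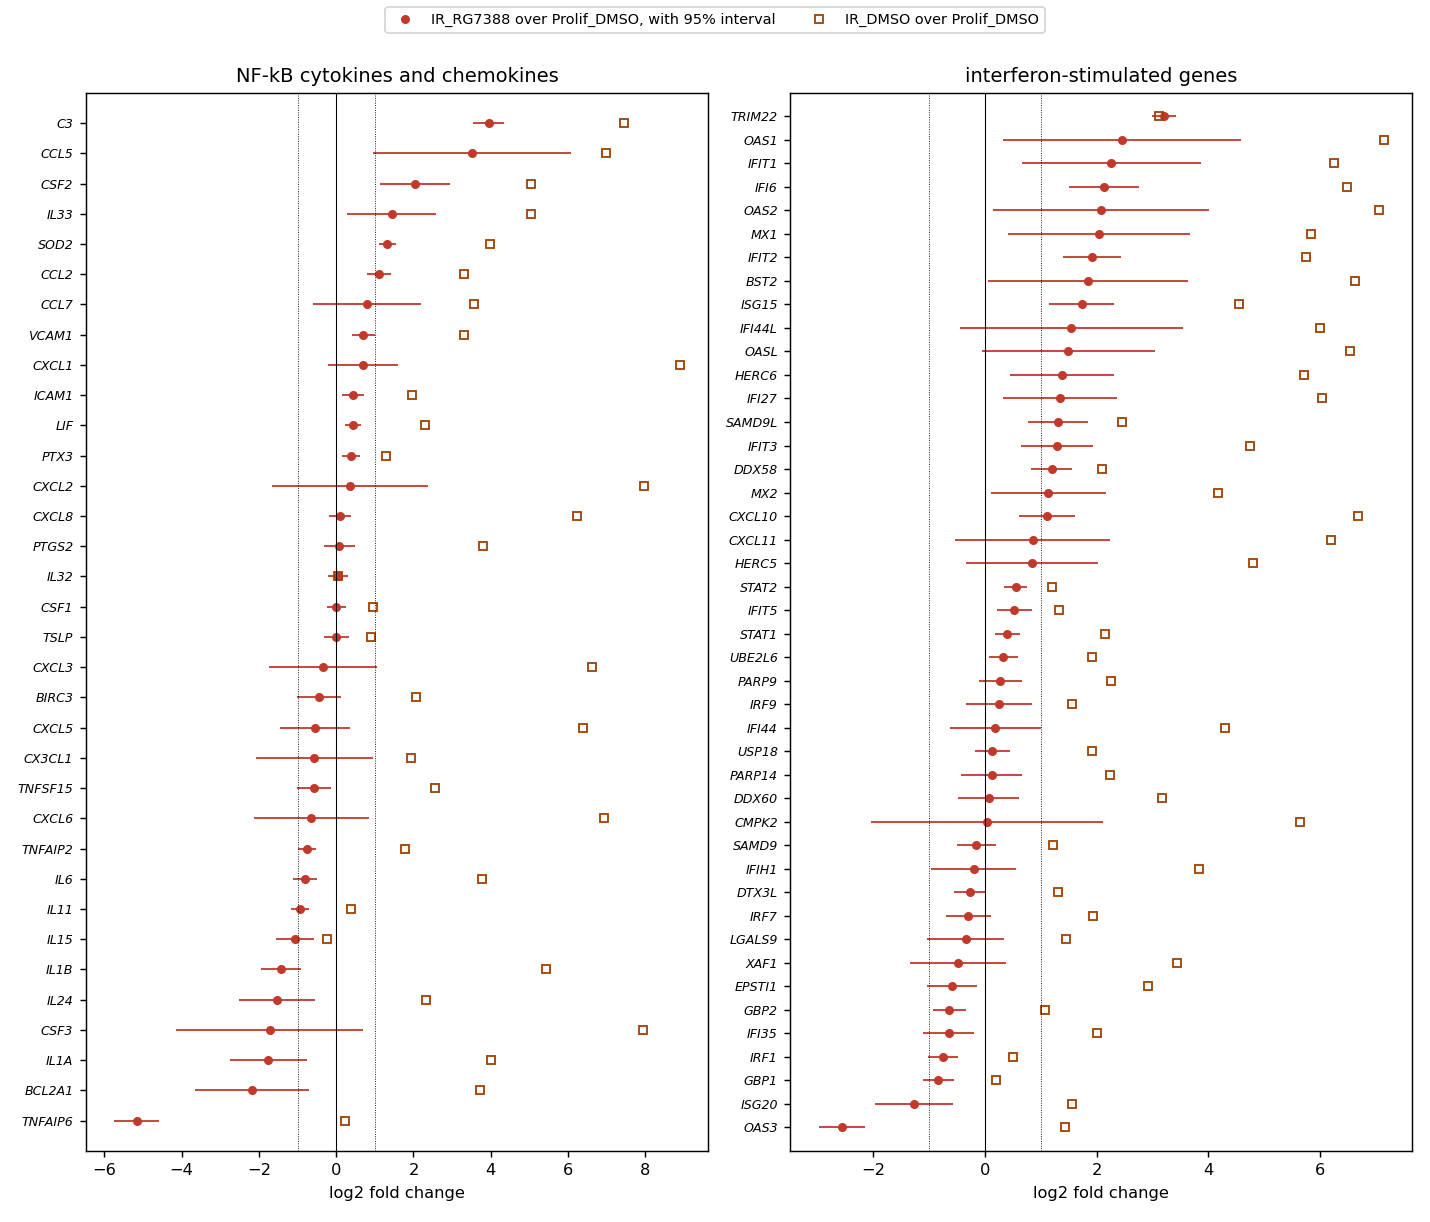
Log2 fold change over Prolif_DMSO of each tested gene of the NF-kB cytokine and chemokine list (left) and each interferon-stimulated gene (right). Values are for IR_RG7388 (filled circles, with 95% interval) and IR_DMSO (open squares). CCL20 and RSAD2 are left out because they had no count in Prolif_DMSO. Dotted lines mark 2-fold. The squares lie far to the right for most genes. The circles cluster around 0 for genes such as CXCL8 and PTGS2 (left) and to its right for interferon-stimulated genes such as ISG15 and IFIT2.

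The promoters of CXCL8, which returned, and CXCL10, an interferon-stimulated chemokine that was held at a low level, are shown because NF-kB and interferon factors are known to act on them. They span chr4:73740319-73740618 on the plus strand and chr4:76023448-76023747 on the minus strand (RefSeq, GRCh38.p14). Capitals mark the NF-kB core GGNNNTTCC and the interferon response core TTCNNTTTC on either strand.
CXCL8: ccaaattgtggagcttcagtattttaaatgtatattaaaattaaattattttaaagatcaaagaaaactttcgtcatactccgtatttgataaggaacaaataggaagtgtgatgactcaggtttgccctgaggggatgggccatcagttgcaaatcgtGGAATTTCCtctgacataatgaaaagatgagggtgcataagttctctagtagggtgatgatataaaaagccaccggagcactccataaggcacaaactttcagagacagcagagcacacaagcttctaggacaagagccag
CXCL10: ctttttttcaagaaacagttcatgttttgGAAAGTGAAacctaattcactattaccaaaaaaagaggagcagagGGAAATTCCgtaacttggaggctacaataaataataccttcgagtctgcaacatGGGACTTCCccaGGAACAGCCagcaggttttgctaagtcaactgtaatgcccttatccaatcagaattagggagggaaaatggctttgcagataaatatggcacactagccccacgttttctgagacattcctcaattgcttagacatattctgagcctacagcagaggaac
CXCL8 holds 1 NF-kB core, at base -91 from the start. CXCL10 holds 3 NF-kB cores, at bases -176, -122 and -110, and 1 interferon core, at base -221. Of the 221 genes higher after irradiation that returned, 161 matched the table with 242 promoters, and 22.7% of these hold the NF-kB core and 11.6% the interferon core. The promoters of the 1355 genes held high (824 matched, 1214 promoters) hold them in 22.2% and 5.93%, those of all genes tested in 22.4% and 6.64%, and all promoters of the table in 20.1% and 8.11%. For the NF-kB core the returned and held genes thus stood close to the share among all genes tested.

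Interferon-stimulated genes were lower than in IR_DMSO almost throughout, and some stayed above Prolif_DMSO. Of 45 tested, 44 were higher in IR_DMSO than in Prolif_DMSO with a median of 3.17, and 17 were higher and 7 lower in IR_RG7388 with a median of 0.53. Over all genes tested, 24.6% were called higher and 24.6% lower in IR_RG7388. Against IR_DMSO, 44 of the 45 were lower. Of 43 in the profile, 13 were held, 14 returned, 2 were opposite and 14 were between. Among all higher profile genes 55.1% were held, 8.99% returned and 35.0% were between. ISG15, a ubiquitin-like modifier, had 38.6, 62.4 and 43.8 CPM in IR_RG7388, 467, 285 and 265 CPM in IR_DMSO and 12.1, 17.5 and 14.2 CPM in Prolif_DMSO (log2 1.73 ± 0.27 against Prolif_DMSO, edgeR adjusted p = 6.3e-05).

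IR_RG7388 replicate 2 was the highest of its group for several of these genes, and without it 11 were higher and 8 lower with a median of 0.25; without Prolif_DMSO replicate 1 the counts were 13 and 7. IFIT2, an antiviral protein that binds RNA, did not depend on that library, with 3.08, 3.65 and 4.07 CPM in IR_RG7388 against 0.927, 1.12 and 0.847 CPM in Prolif_DMSO (log2 1.91 ± 0.25). CXCL10 had 0.934, 0.897 and 1.11 CPM in IR_RG7388, 40.0, 54.7 and 43.8 CPM in IR_DMSO and 0.463, 0.474 and 0.410 CPM in Prolif_DMSO. It was 2.17-fold above Prolif_DMSO (log2 1.12 ± 0.24, edgeR adjusted p = 0.00051) and 46.9-fold below IR_DMSO, and none of the 3 groups overlapped. RSAD2, the antiviral enzyme viperin, had no count in Prolif_DMSO and 33 counts in IR_RG7388, at least 11.0-fold higher against the same kind of floor.

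Sensors of viral RNA fell into different classes. DDX58, the sensor RIG-I, was held at 31.5, 38.1 and 30.9 CPM in IR_RG7388 against 15.3, 11.8 and 16.4 CPM in Prolif_DMSO (log2 1.20 ± 0.18), with 60.6 to 66.1 CPM in IR_DMSO. IFIH1, the sensor MDA5, returned, at 0.689, 1.67 and 0.726 CPM in IR_RG7388 against 1.16, 0.647 and 1.48 CPM in Prolif_DMSO, and these libraries overlapped. DDX60, a helicase linked to RIG-I, and PARP9, an ADP-ribosyltransferase, returned as well, and replicate 2 was highest of the IR_RG7388 libraries in both. OAS3, which makes the 2-5A messenger, was opposite, with 3.69, 7.70 and 3.73 CPM in IR_RG7388, 78.0, 80.0 and 78.4 CPM in IR_DMSO and 27.8, 29.3 and 30.3 CPM in Prolif_DMSO (log2 -2.55 ± 0.20, edgeR adjusted p = 1.1e-09).

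Antigen presentation genes were mixed. Of 18 listed 17 were tested, of which 3 were higher and 6 lower in IR_RG7388 than in Prolif_DMSO. Among all genes tested 24.6% were called higher and 24.6% lower. With scaling to library totals 6 of the listed genes were higher and 6 lower. HLA-E, which is recognized by natural killer cells, was held at 374, 375 and 395 CPM in IR_RG7388 against 175, 179.9 and 172 CPM in Prolif_DMSO, a 2.17-fold rise (log2 1.12 ± 0.10, edgeR adjusted p = 1.4e-09), while IR_DMSO had 409, 387 and 386 CPM. PSMB9, an immunoproteasome subunit, was opposite (log2 -1.78 ± 0.29), and TAP1, the peptide transporter, returned, with 54.0 to 54.6 CPM in IR_RG7388 against 38.6 to 48.9 CPM in Prolif_DMSO. HLA genes are close relatives, and reads that fit several of them make their counts uncertain.

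Of 13 tested genes of cytosolic DNA sensing, 1 was higher and 7 lower than in Prolif_DMSO, where 24.6% of all genes tested were called higher and 24.6% lower. CGAS, the DNA sensor, was held low, at 3.72, 3.77 and 3.27 CPM in IR_RG7388, 5.67, 5.17 and 5.49 CPM in IR_DMSO and 10.8, 11.1 and 12.2 CPM in Prolif_DMSO (log2 -1.66 ± 0.17, edgeR adjusted p = 1.5e-08). TMEM173, its adaptor STING, returned from a lower level, with 40.5, 47.1 and 45.5 CPM in IR_RG7388, 27.1, 34.4 and 35.5 CPM in IR_DMSO and 67.5, 73.0 and 66.5 CPM in Prolif_DMSO, and was still below Prolif_DMSO (log2 -0.64 ± 0.14). The IR_RG7388 libraries overlapped with neither group for either gene.

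The proteases and growth factors of the SASP divided by gene. Of 22 proteases and inhibitors tested, 6 were higher and 8 lower in IR_RG7388 than in Prolif_DMSO. Over all genes tested, 24.6% were called higher and 24.6% lower. MMP1, an interstitial collagenase, returned, with 229, 238 and 280.1 CPM in IR_RG7388, 578, 579 and 567 CPM in IR_DMSO and 213, 212 and 221 CPM in Prolif_DMSO; its difference from Prolif_DMSO, log2 0.21 ± 0.09, missed the threshold (edgeR adjusted p = 0.067) and passed it under 4 alternatives (adjusted p 0.0039 to 0.042). MMP3, stromelysin, was opposite, with 5.71, 5.41 and 4.90 CPM in IR_RG7388, 71.1, 41.3 and 40.5 CPM in IR_DMSO and 13.1, 12.7 and 12.9 CPM in Prolif_DMSO (log2 -1.27 ± 0.18, adjusted p = 4.0e-06). MMP10, a second stromelysin, fell 7.69-fold below Prolif_DMSO although IR_DMSO had not been called different from it.

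Serine proteases and their inhibitors were found among the held and the returned genes. PLAT, tissue plasminogen activator, was held at 1133, 1140.3 and 1163 CPM in IR_RG7388 against 448, 475 and 438 CPM in Prolif_DMSO, and SERPINB2, an inhibitor of plasminogen activators, at 28.1, 28.4 and 36.3 CPM in IR_RG7388 against 9.07, 9.83 and 9.57 CPM in Prolif_DMSO. TFPI2, a serine protease inhibitor, returned from the higher side, at 75.2, 70.9 and 72.2 CPM in IR_RG7388 against 42.6, 46.5 and 46.6 CPM in Prolif_DMSO and 366 to 412 CPM in IR_DMSO.

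Growth factors and binding proteins of the SASP were more often higher than lower. Of 37 tested, 19 were higher and 9 lower in IR_RG7388 than in Prolif_DMSO, where 24.6% of all genes tested were called higher and 24.6% lower. Of the 18 in the higher profile 11 were held, 6 returned and 1 was between. Among all higher profile genes 55.1% were held, 8.99% returned and 35.0% were between. WNT16, a Wnt ligand of damaged fibroblasts, had 57.2, 55.9 and 55.3 CPM in IR_RG7388, 66.8, 67.2 and 69.1 CPM in IR_DMSO and 2.90, 2.93 and 2.76 CPM in Prolif_DMSO (log2 4.29 ± 0.13 against Prolif_DMSO, edgeR adjusted p = 8.7e-18). ANGPTL4, an inhibitor of lipoprotein lipase, and NRG1, a ligand of ERBB receptors, were held at 4.45-fold and 3.17-fold above Prolif_DMSO. BMP2, a bone morphogenetic protein, returned, with 15.0, 14.9 and 13.6 CPM in IR_RG7388 against 15.7, 14.4 and 14.9 CPM in Prolif_DMSO and 58.6 to 61.3 CPM in IR_DMSO. VEGFA, the vascular growth factor, was not in the profile and fell to 132, 137 and 134 CPM in IR_RG7388, against 231, 232 and 227 CPM in Prolif_DMSO.

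Matrix genes were held low. Of 43 collagen and matrix genes, 32 were lower and 4 higher in IR_RG7388 than in Prolif_DMSO, with a median of -1.20 against -1.31 in IR_DMSO. Of the 29 in the lower profile 25 were held, 3 returned and 1 was between. Among all lower profile genes 74.8% were held and 8.30% returned. COL1A1, the main chain of type I collagen, had 9622, 9071 and 8174 CPM in IR_RG7388 against 20288, 22420.3 and 23743 CPM in Prolif_DMSO (log2 -1.31 ± 0.17, edgeR adjusted p = 1.7e-06). IR_DMSO had 9178 CPM in replicate 1 and 5241 and 5544 CPM in the others, so 1 of its libraries lay within the IR_RG7388 range. COL5A3, a chain of type V collagen, fell 33.2-fold, ELN, elastin, fell 13.7-fold, and TNC, tenascin C, fell 11.3-fold.

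The 4 matrix genes that were higher were DCN, decorin, COL11A1, a minor fibrillar collagen, and LOX and LOXL4, which crosslink collagen. LOX had 2499, 2356 and 2186 CPM in IR_RG7388, 994, 1287 and 1336 CPM in IR_DMSO and 1336, 1311 and 1402 CPM in Prolif_DMSO, so IR_RG7388 was above both groups (log2 0.80 ± 0.13 against Prolif_DMSO, edgeR adjusted p = 2.8e-05). FBLN5, which guides elastic fiber assembly, LOXL2, a related crosslinking enzyme, and THBS1, thrombospondin 1, were the 3 that returned. THBS1 had 2155, 2147 and 2024 CPM in IR_RG7388, 1118, 1264 and 1367 CPM in IR_DMSO and 2469.7, 2522 and 2801 CPM in Prolif_DMSO. COL11A1 was named after its values were seen.

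Contractile genes and targets of TGF-beta were mixed, and some of those lowered by irradiation returned. Of 30 listed, 17 were lower and 6 higher in IR_RG7388 than in Prolif_DMSO, with a median of -0.58 against -0.43 in IR_DMSO. The shares over all genes tested were 24.6% lower and 24.6% higher. Against IR_DMSO, 13 were higher and 9 lower, where 10.9% of all genes tested were higher and 11.9% lower. Of the 11 in the lower profile 5 were held, 5 returned and 1 was between. Among all lower profile genes 74.8% were held and 8.30% returned. ACTA2, smooth muscle actin, was just held, with 756, 783 and 838 CPM in IR_RG7388, 342, 437 and 440.4 CPM in IR_DMSO and 1502, 1712 and 1572 CPM in Prolif_DMSO. It was 2.01-fold below Prolif_DMSO (log2 -1.01 ± 0.13) and 1.95-fold above IR_DMSO (edgeR adjusted p = 4.2e-06). ACTG2, smooth muscle gamma actin, returned, with 941, 953 and 1026 CPM in IR_RG7388 against 1358, 1469 and 1327 CPM in Prolif_DMSO and 362 to 565 CPM in IR_DMSO. ID1 and ID3, inhibitors of differentiation that bone morphogenetic proteins induce, fell 3.03-fold and 2.61-fold below Prolif_DMSO.

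**Figure D4:**
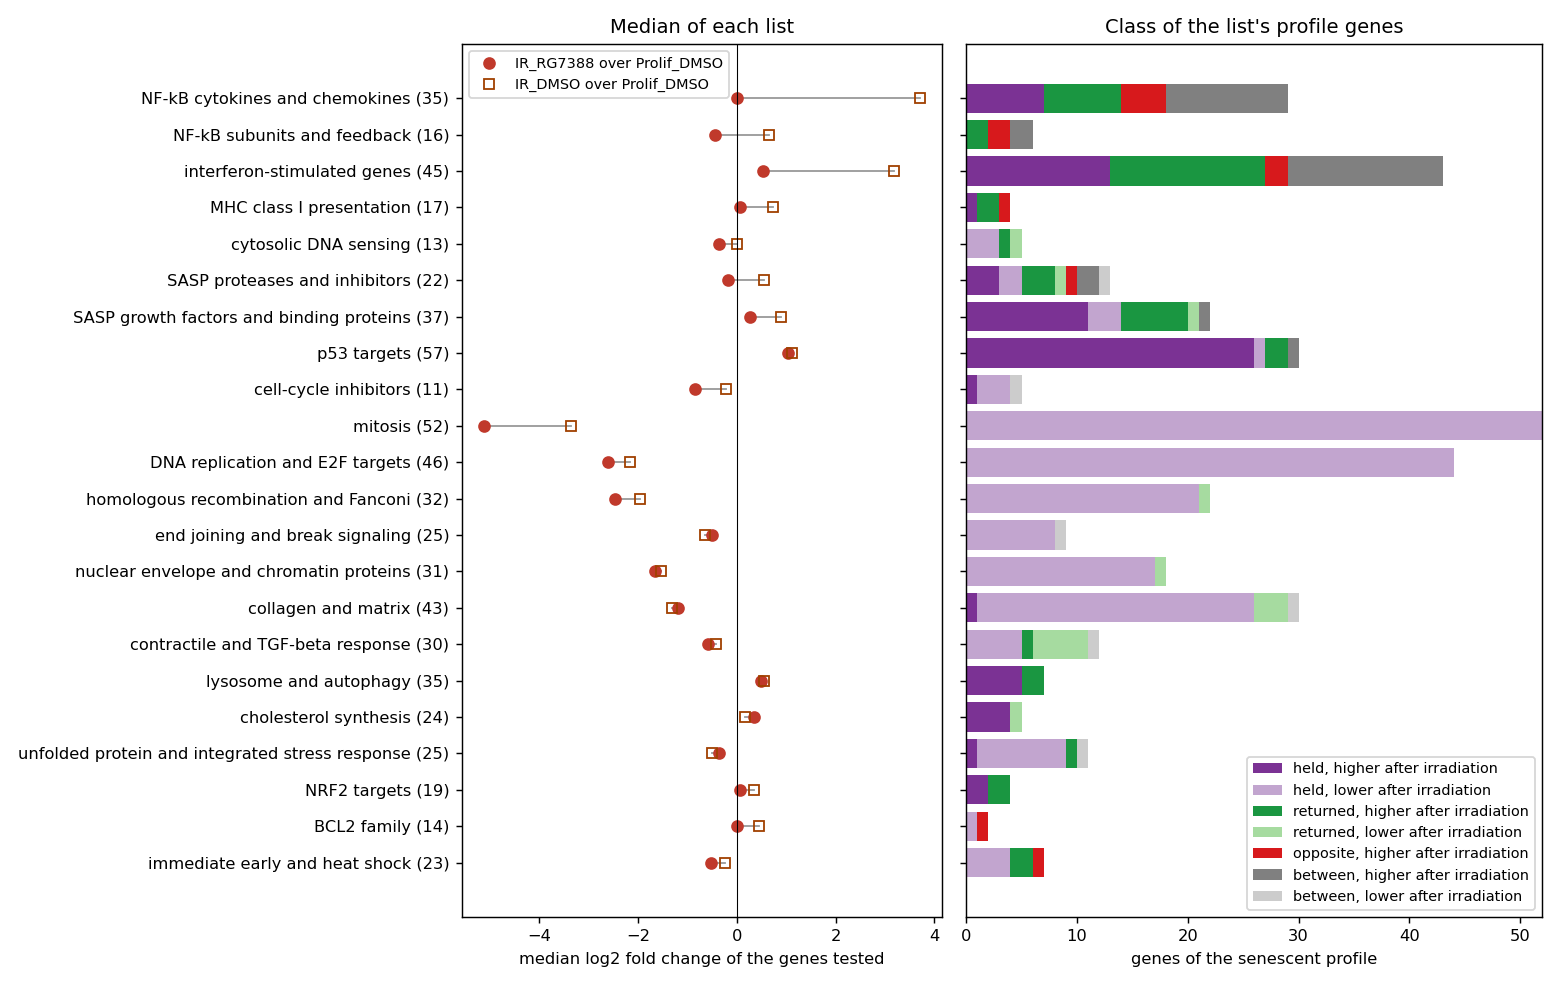
Left, median log2 fold change over Prolif_DMSO of the tested genes of each list, for IR_RG7388 (filled circles) and IR_DMSO (open squares), with the number tested in parentheses. Right, number of each list's genes in the senescent profile by class under RG7388. The cytokine and interferon lists have medians of 0.01 and 0.53 in IR_RG7388 against 3.72 and 3.17 in IR_DMSO, while all 52 mitosis genes are held.

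Other genes lowered by irradiation returned outside these lists. ANO1, a chloride channel, had 68.5, 68.8 and 67.3 CPM in IR_RG7388, 17.1, 22.2 and 24.5 CPM in IR_DMSO and 79.1, 80.4 and 78.2 CPM in Prolif_DMSO, 3.21-fold above IR_DMSO (edgeR adjusted p = 2.7e-10). RGS4, a regulator of G protein signaling, had 61.7, 63.2 and 67.2 CPM in IR_RG7388 against 81.6, 85.9 and 84.6 CPM in Prolif_DMSO and 22.6 to 24.2 CPM in IR_DMSO. ITGA6, the laminin receptor subunit alpha-6, averaged 110.3 CPM in IR_RG7388, 58.4 CPM in IR_DMSO and 173 CPM in Prolif_DMSO. Each of these 3 genes was higher in IR_RG7388 than in IR_DMSO, and in each the IR_RG7388 libraries still lay below all Prolif_DMSO libraries.

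The genes with the largest rises over Prolif_DMSO were held genes. CCND2, cyclin D2, had 276, 271 and 257 CPM in IR_RG7388, 123, 148 and 140.2 CPM in IR_DMSO and 3.85, 5.09 and 6.83 CPM in Prolif_DMSO. It was 51.6-fold above Prolif_DMSO (log2 5.69 ± 0.16, edgeR adjusted p = 4.4e-18) and 1.96-fold above IR_DMSO (adjusted p = 6.2e-06). C7, a component of the complement membrane attack complex, had 50.7, 54.3 and 54.8 CPM in IR_RG7388, 19.4, 18.6 and 16.0 CPM in IR_DMSO and 2.76, 2.37 and 1.94 CPM in Prolif_DMSO. ADAMTS19, a secreted metalloproteinase, rose 50.9-fold to 25.9, 26.5 and 22.4 CPM in IR_RG7388. Outside the profile, KRT19, a keratin of simple epithelia, had 117, 118 and 139 CPM in IR_RG7388, 46.3, 39.2 and 49.8 CPM in IR_DMSO and 25.1, 24.2 and 24.4 CPM in Prolif_DMSO, and Prolif_RG7388 averaged 52.8 CPM. Of the other epithelial markers tested none was called higher and 1 was called lower.

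A smaller set changed under RG7388 beyond the profile, being called at 2-fold or more against Prolif_DMSO, not called in IR_DMSO against Prolif_DMSO, and called in the same direction against IR_DMSO. It held 54 higher and 171 lower genes, and without IR_DMSO replicate 1 it held 34 higher. TNFRSF10D (chr8:23135588-23164027), a decoy receptor for TRAIL and a p53 target, had 652, 621 and 648 CPM in IR_RG7388, 165, 175 and 188 CPM in IR_DMSO and 189, 211 and 196 CPM in Prolif_DMSO. It was 3.23-fold above Prolif_DMSO (log2 1.69 ± 0.11, edgeR adjusted p = 4.7e-12), and Prolif_RG7388 averaged 336 CPM, also above Prolif_DMSO (adjusted p = 0.00018). GPER1, a membrane estrogen receptor, had 11.5, 11.0 and 11.1 CPM in IR_RG7388 against 3.43, 2.93 and 3.47 CPM in Prolif_DMSO, and FMN1, an actin nucleator, had 114, 111 and 93.0 CPM in IR_RG7388 against 27.1, 22.4 and 31.7 CPM in Prolif_DMSO. On the lower side FOS, the early response factor, had 0.429, 0.340 and 0.493 CPM in IR_RG7388 against 2.93, 1.64 and 2.98 CPM in Prolif_DMSO (log2 -2.59 ± 0.29). CALCRL, the receptor for adrenomedullin, fell 5.74-fold to 0.245, 0.0928 and 0.181 CPM in IR_RG7388.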

How the data were processed

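Poly(A) RNA of IMR90 cells was sequenced in 6 groups of 3 libraries, which were grouped by their labels. The deposited values are raw counts of reads per gene, which the authors obtained with HTSeq from STAR alignments to hg38; no version, annotation release or strand setting is given in the sources used here, so overlapping and antisense genes cannot be separated. FPKM values from Cufflinks were not used. Of 60668 genes, 45 pseudoautosomal copies were removed, and 18151 passed filterByExpr by group in edgeR 4.0.16 (R 4.3.3). After TMM scaling, the 18 libraries entered a single robust quasi-likelihood fit with a mean for each group, which left 12 residual degrees of freedom and a shared estimate of the spread. P-values were adjusted over all genes tested. SEs were obtained from the log2 fold change and its F statistic, and intervals are at 95%. The fit was tested on simulated data. Coordinates are those of GENCODE release 44, which matched 99.5% of IDs. Genes with near-identical relatives (HLA, TNFRSF10C and TNFRSF10D) have uncertain counts.

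The members and lists were chosen with earlier results of these data known. Genes named are a fixed panel of 24, the 10 largest rises and falls, the leading, dissenting and returned members of each list, and the 8 largest changes per class and direction, from which the text takes a selection, and some of these genes are not reported here. Promoters are from RefSeq (GRCh38.p14), and genes with several starts count with each of them. Alternatives were DESeq2 1.42.0 (size factors, Wald test), library totals, filters on low counts, a replicate block, fewer groups in the fit, other thresholds and leaving out libraries.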

Additional observations from a re-analysis of the deposited data

How the results depend on the processing

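Of 214 recomputed counts 198 stayed within 1.5 times the reported one, and no named gene reversed. Scaling to library totals, which moved the median of all genes to 0.11 from 0.01, gave 57.8% of calls as higher against 50%, 397 returned genes on the higher side and 45 on the lower, 1437 and 120 between, and 28 genes raised beyond the profile. Between genes on the higher side numbered 471 with at least 1 CPM in 3 libraries, and opposite genes 13 at adjusted p under 0.01. With a 2-fold minimum 1816 genes were called higher and 2015 lower. A 1.5-fold interval left 48 and 34 returned genes on the higher and lower side, and no fold minimum in the profile gave 1565 and 2316 returned and 1550 and 723 between, as the wider profile admits small changes.

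Leaving out 1 library at a time gave 3745 to 4523 genes higher and 3943 to 4810 lower, 1216 to 1340 held higher and 1211 to 1354 held lower, 172 to 225 and 119 to 187 returned, 16 to 21 opposite, 774 to 965 and 271 to 364 between, and 34 to 69 higher and 137 to 194 lower beyond the profile. The lowest of the beyond-profile counts, 34, came without IR_DMSO replicate 1, and the cause was not tested. Replicate numbers did not pair the libraries: in the compared groups same-numbered libraries had residual correlations of 0.06, 0.02 and -0.10, and 8 of 18 libraries correlated best with their own number. With the replicate block 4480 genes were higher and 4413 lower, and 17856 of 18151 genes kept their call. Without a filter on low counts RGS4 missed the threshold (edgeR adjusted p = 0.076). ANO1 and HMGA1 passed it in the fit of the compared groups alone (edgeR adjusted p = 0.0025 and 0.011).

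Counts bear on rare transcripts: CCL20, RSAD2, IL1A and BCL2A1 rest on few reads, and 635 higher profile genes have intervals too wide to place. The 3 libraries per group limit the spread that can be seen, and mitochondrial RNA separates IR_DMSO replicate 1 from its group.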

Other observations

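Lysosome and autophagy genes stayed raised. Of 35 listed, 22 were higher and 4 lower in IR_RG7388 than in Prolif_DMSO, with a median log2 difference of 0.48 against 0.56 in IR_DMSO. MAP1LC3B, the autophagosome protein LC3B, had 227, 224 and 229 CPM in IR_RG7388 against 100.5, 104 and 105 CPM in Prolif_DMSO (log2 1.14 ± 0.09). CTSK, the collagen-degrading cathepsin K, was lower, at 16.5, 17.5 and 18.1 CPM in IR_RG7388, 53.7, 52.8 and 48.0 CPM in IR_DMSO and 36.6, 39.8 and 39.8 CPM in Prolif_DMSO. Of 24 cholesterol synthesis genes, 13 were higher and 4 lower, where 24.6% of all genes tested were called higher and 24.6% lower. MSMO1, a sterol oxidase, rose 3.20-fold and TM7SF2, a sterol reductase, rose 7.01-fold, while INSIG1, the sensor protein that retains SREBP, was lower in IR_RG7388 (8.46 CPM) than in Prolif_DMSO (15.5 CPM).

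Of 25 genes of the unfolded protein and integrated stress response, 15 were lower and 3 higher than in Prolif_DMSO. PHGDH, the first enzyme of serine synthesis, had 39.7, 39.3 and 44.3 CPM in IR_RG7388 against 334, 377 and 358 CPM in Prolif_DMSO and was held low, as was PSAT1, the next enzyme, at 4.28-fold below Prolif_DMSO. ATF3, a stress-induced transcription factor, returned, with 12.5, 10.4 and 12.3 CPM in IR_RG7388, 52.3, 58.3 and 56.1 CPM in IR_DMSO and 11.8, 11.9 and 11.2 CPM in Prolif_DMSO. Of 19 NRF2 targets, 5 were higher and 6 lower, where 24.6% of all genes tested were called higher and 24.6% lower. NQO1, a quinone reductase, fell to 26.9, 24.6 and 27.9 CPM in IR_RG7388, against 81.0, 91.9 and 84.3 CPM in Prolif_DMSO, whereas FTL, ferritin light chain, was held at 2.54-fold above it. In the BCL2 family, BCL2L1, the survival protein BCL-xL, had 152, 157 and 161 CPM in IR_RG7388, 102, 101 and 105 CPM in IR_DMSO and 64.8, 64.5 and 61.0 CPM in Prolif_DMSO, while BCL2 fell 8.30-fold below Prolif_DMSO.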
